A study of Mus musculus with 8 samples.

Results

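The 10 genes described here encode the core of the miRNA pathway: *Drosha* and *Dgcr8*, *Xpo5*, *Dicer1*, the Argonautes *Ago1*, *Ago2*, *Ago3* and *Ago4*, and the GW182 proteins *Tnrc6a* and *Tnrc6b*. They were chosen by gene symbol for their known roles from the 52325 Ensembl identifiers listed for each library, and all 10 passed the filter on low values. No measured value entered the rule, but earlier results of these data were known when the genes were chosen. Their mRNA was measured by RNA-seq in costal (rib) chondrocytes released by collagenase from 7-d-old mice on a C57BL/6J background, 4 of them wild-type (WT) and 4 homozygous for a deletion of the whole *Mir140* locus (*Mir140*-null). The null allele was made in zygotes with CRISPR/Cas9, is present in every cell of the animal. The founders were of mixed C57BL/6 and CBA/ca origin and were backcrossed to C57BL/6J, and the WT and null lines both descend from heterozygous *Mir140*+/- mice. Values are TPM (a transcript count scaled for transcript length and to the same total in each library), so levels of different genes can be set side by side. The question is whether loss of a single abundant cartilage miRNA was accompanied by a change in the genes that make and use all miRNAs.

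A miRNA is made in steps. The Microprocessor, formed by the nuclease DROSHA and its RNA-binding partner DGCR8, cuts a hairpin from the primary transcript in the nucleus. Exportin 5 (*Xpo5*) with the GTPase RAN carries the hairpin to the cytoplasm, where DICER1 cuts off the loop and 1 strand is loaded into an Argonaute protein. Argonautes bind GW182 proteins, which recruit deadenylases and decapping factors to the target mRNA. In chondrocytes this pathway is known to be needed for normal growth of the skeleton.

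All 10 chondrocyte markers examined, among them *Col2a1* and *Acan*, were at 0.5 TPM or more in every library, and their summed level was 57389 to 72608 TPM in WT and 42062 to 57805 TPM in *Mir140*-null libraries. Most of that sum is *Col2a1* (means of 57785 and 41414 TPM), and by mean 8 of the 10 markers were lower and 2 higher in null. *Acan* was higher in every null library (447 to 681 TPM in WT and 876 to 1085 TPM in null). Lower in every null library were 3 markers, *Col9a1* (2968 to 3448 TPM in WT and 2090 to 2777 TPM in null), *Col11a1* (2851 to 3249 and 1746 to 2599 TPM) and *Hapln1* (339 to 378 and 215 to 270 TPM). The libraries labelled *Mir140*-null replicates 1 and 2 stood apart in their markers of perichondrium and fibroblasts: 6 of the 7 markers were lower in both than in each of the 6 other libraries, and none was at 0 in any library. The remaining marker, *Pdgfra*, was higher in every null library (31.5 to 36.5 TPM) than in WT (11.8 to 19.8 TPM). The summed level of these 7 markers was 883 and 1059 TPM in the libraries labelled null 1 and 2, 5632 and 4262 TPM in null 3 and 4, and 3537 to 6417 TPM in WT. The summed markers of osteoblasts, red and white blood cells and endothelium were also lower in the libraries labelled null 1 and 2 than in all others. They were at 5.35 and 4.48 TPM against at least 14.5 TPM for osteoblasts, and 432 and 256 against at least 646 TPM for red blood cells. White blood cell markers were at 17.3 and 16.8 against at least 21.8 TPM, and those of endothelium at 3.98 and 5.26 against at least 6.02 TPM. Skeletal muscle markers did not follow this pattern. They were at 33.6 and 57.3 TPM in the libraries labelled null 1 and 2, 53.5 and 51.9 TPM in null 3 and 4, and 61.2 to 96.4 TPM in WT. Mitochondrial transcripts took 4.06% to 6.99% of the TPM in WT and 8.41% to 10.1% in *Mir140*-null libraries, and genes at 0.5 TPM or more numbered 17128 to 17950 and 15800 to 17435. *Mir140* itself was listed at 0 TPM in all WT libraries and at 8.86 TPM in the library labelled null 2, so the mRNA libraries do not check the genotype labels. The study genotyped the mice by PCR and measured miR-140 by qRT-PCR in RNA that included several of these samples, which is not analysed here. The part of these differences in the results below was not tested, and the change of each member, and the calls of the wider pathway, are also given without the libraries labelled null 1 and 2. In bulk RNA, fewer cells of a type and less RNA per cell cannot be told apart.

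Cartilage makes miR-140-3p in a canonical form (miR-140-3p.2) and in a form that starts 1 base later (miR-140-3p.1), and both are absent by design from *Mir140*-null mice. They are shown because 4 of the 10 machinery genes are on the study's lists of predicted targets of these isomiRs, which were made with TargetScanHuman and are therefore predictions for human genes, matched here by symbol. The sequences are from RefSeq (GRCm38.p6, chr8:107551288-107551308 for miR-140-3p.2, plus strand), with the shorter form read from the second base, and capitals mark the seed, bases 2 to 8.
miR-140-3p.2: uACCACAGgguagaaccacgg
miR-140-3p.1: aCCACAGGguagaaccacgg

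The 2 seeds share 6 bases, so that a match to one can overlap a match to the other. For each gene the 3′UTR of greatest annotated length was searched, on the transcript strand alone, for a match to the seed (CTGTGGT for miR-140-3p.2 and CCTGTGG for miR-140-3p.1), called 7m8, or 8mer where an A follows. *Ago1* and *Tnrc6a* are on the predicted list of miR-140-3p.1, and *Ago2* and *Ago4* on that of miR-140-3p.2. A 30-base window around a match in each is given in mm10, with the match in capitals. The *Ago1* window lies at chr4:126439128-126439157 and the *Tnrc6a* window at chr7:123193025-123193054, on the minus and plus strands. The *Ago2* window at chr15:73106115-73106144 and the *Ago4* window at chr4:126492898-126492927 are both on the minus strand, and the latter holds an 8mer.
*Ago1*, miR-140-3p.1 match: agctctgcagcCCTGTGGtcaaatgctggt
*Tnrc6a*, miR-140-3p.1 match: cagccagggcaCCTGTGGgaacagctgttt
*Ago2*, miR-140-3p.2 match: agaatacgggtCTGTGGTgataaatacagt
*Ago4*, miR-140-3p.2 match: tcttttgctagCTGTGGTAttcaccgcatc

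A miR-140-3p.1 match occurred in 7 of the 10 3′UTRs, those of *Dgcr8*, *Dicer1*, *Ago1*, *Ago2*, *Ago4*, *Tnrc6a* and *Tnrc6b*. A miR-140-3p.2 match occurred in 4 of them, those of *Ago1*, *Ago2*, *Ago4* and *Tnrc6b*. Over the 12981 tested genes with a 3′UTR, 20.2% held a miR-140-3p.1 match and 19.0% a miR-140-3p.2 match. Several of the machinery 3′UTRs are long, 11064 bases for *Ago2* and 11609 for *Tnrc6b* against a median of 1157 bases, and among the 500 genes nearest in 3′UTR length to *Ago2* the shares were 55.6% and 60.0%. The 3′UTR of *Ago3*, the longest of the 10 at 12742 bases, held neither match, and those of *Xpo5* and *Drosha* held none. A 7a1 match, to bases 2 to 7 of the isomiR with an A after it, is not counted above. The *Xpo5* 3′UTR held 1 for miR-140-3p.1, and that of *Ago3* held 1 for each isomiR. Matches to miR-140-5p were not searched. These matches are descriptions of sequence and not measured sites.

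Of the 10 genes, *Xpo5* was the only member called at an adjusted p under 0.05 (limma on log2(TPM + 1), adjusted over 17177 tested genes), and it was higher in *Mir140*-null chondrocytes. Thus 1 of 10 members was called higher and 0 lower, where 10.5% of all tested genes were called higher and 6.40% lower. At an unadjusted p under 0.05, *Dgcr8* and *Ago2* were also higher and *Ago1* was lower. That made 3 of 10 members higher and 1 of 10 lower, where 19.0% of all tested genes were higher and 14.9% lower. WT and null values were fully separate for *Xpo5*, *Dicer1* and *Ago2*, which were higher in every null library, and for *Ago1* and *Tnrc6b*, which were lower in every null library. Thus 3 of 10 members were separate in the higher and 2 of 10 in the lower direction, against 15.7% and 10.2% of all tested genes. The median log2 fold change of the 10 members was -0.13, beside -0.01 over all tested genes. Without the libraries labelled null 1 and 2, no member was called by limma, and *Xpo5* and *Tnrc6b* were at an unadjusted p under 0.05. In that fit *Drosha* differed by -0.05, *Dgcr8* by 1.24, *Dicer1* by 0.12, *Ago3* by -0.07, *Ago4* by -0.25, *Tnrc6a* by 0.14 and *Tnrc6b* by -0.51, and the others are given below.

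**Figure D1:**
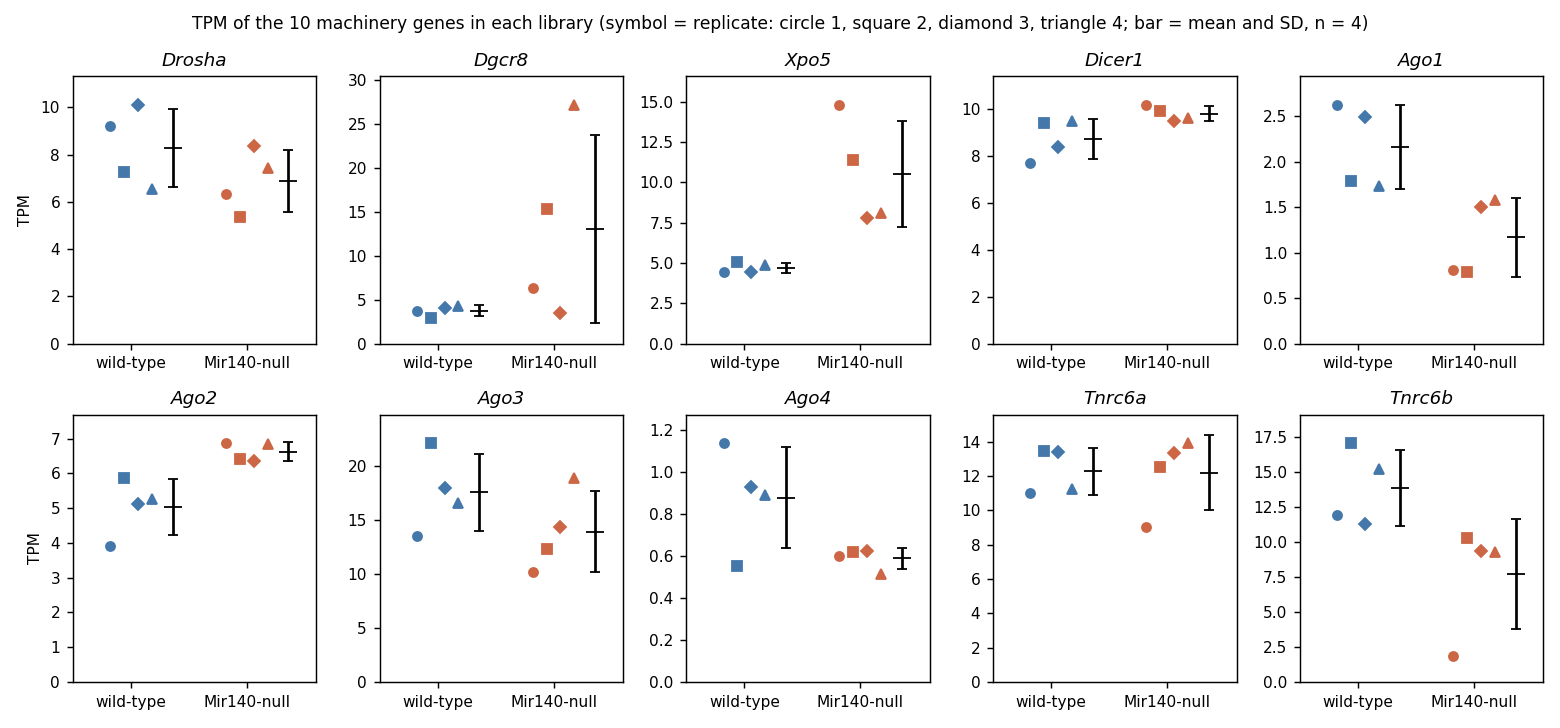
TPM (y axis) of each of the 10 machinery genes in 4 wild-type (blue) and 4 *Mir140*-null (orange) libraries, with the replicate shown by the symbol and the mean and SD beside the points. *Xpo5* lies at or above 7.79 TPM in each null library and at or below 5.05 TPM in each wild-type library, and *Dgcr8* runs from 3.44 to 27.2 TPM within the null group.

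The Microprocessor genes showed no called change. *Drosha* (ENSMUSG00000022191, chr15:12824815-12935291, plus strand), which encodes the nuclease, was at 9.23, 7.27, 10.1 and 6.55 TPM in WT replicates 1 to 4 and at 6.32, 5.34, 8.36 and 7.45 TPM in the null replicates. The genotypes overlapped, and the log2 fold change was -0.24 ± 0.18 (SE, n = 4 per genotype, adjusted p = 0.387 in limma), with a 95% interval from -0.65 to 0.18. *Dgcr8* (ENSMUSG00000022718, chr16:18253948-18289246, minus strand), which encodes the partner that recognizes the hairpin, was at 3.71, 2.94, 4.04 and 4.33 TPM in WT and at 6.32, 15.3, 3.44 and 27.2 TPM in null. The null libraries other than null 3 lay above every WT library, and null 3 lay within the WT range. The SD of *Dgcr8* was 0.602 TPM in WT and 10.7 TPM in null, and the log2 fold change of 1.23 ± 0.52 did not pass (adjusted p = 0.14, limma). Without null replicate 3 it was 1.66 (adjusted p = 0.0392) and without null replicate 4 it was 0.78 (adjusted p = 0.226). The *Drosha* over *Dgcr8* ratio, taken like all ratios here as the difference of log2(TPM + 1), differed by -1.46 on the log2 scale, with overlap (two-sided exact permutation p = 0.0857, adjusted 0.137). *Dgcr8* has 10 annotated transcripts of 98 to 4320 bases, and the deposited gene value sums them, so that which transcript carries the high values is not shown here.

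The only member called, 1 of 10 where 10.5% of all tested genes were called higher, was the nuclear export gene. *Xpo5* (ENSMUSG00000067150, chr17:46202782-46243598, plus strand) was at 4.41, 5.05, 4.43 and 4.85 TPM in WT and at 14.8, 11.4, 7.79 and 8.12 TPM in *Mir140*-null chondrocytes. The WT libraries lay close together and every null library was higher, with the highest values in the libraries labelled null 1 and 2. The means were 4.69 ± 0.317 and 10.5 ± 3.27 TPM (SD, n = 4), a ratio of 2.24, and the log2 fold change on the TPM + 1 scale was 0.98 ± 0.20 (SE, adjusted p = 0.018, limma). *Ran*, the GTPase that forms the export complex with exportin 5 and also serves the other exportins and importins, was up-regulated as well, from 201, 172, 173 and 173 TPM in WT to 481, 553, 297 and 312 TPM in null. Its log2 fold change was 1.14 ± 0.21 (adjusted p = 0.0136, limma), and its libraries did not overlap between genotypes.

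The rise of *Xpo5* was near the threshold when libraries were left out. It was 0.93 (adjusted p = 0.0533) without the library labelled null 2, 0.96 (adjusted p = 0.0517) without WT 3, and 0.66 (adjusted p = 0.0514) without the libraries labelled null 1 and 2 together. Since every null library exceeded all 4 WT libraries, leaving libraries out could not change its sign. With the mean of the fibroblast markers as a covariate, *Xpo5* was higher by 0.71 (adjusted p = 0.0228). *Ran* was called in every fit run and was higher by 0.76 (adjusted p = 0.0312) without the libraries labelled null 1 and 2.

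**Figure D2:**
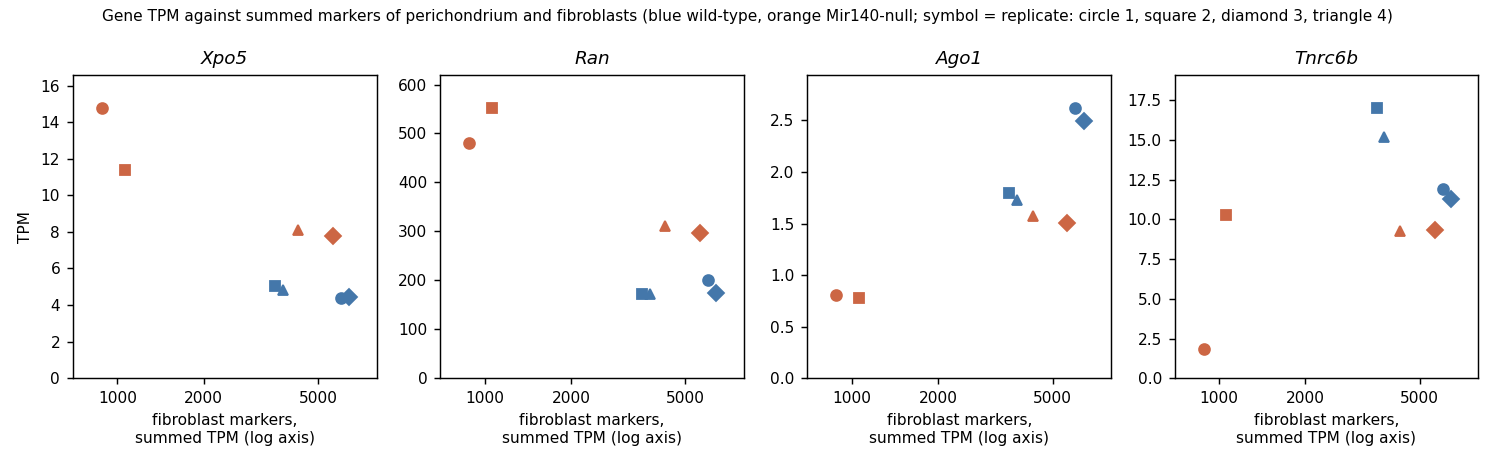
TPM of *Xpo5*, *Ran*, *Ago1* and *Tnrc6b* (y axes) against the summed TPM of 7 markers of perichondrium and fibroblasts (x axis, log scale) in 4 wild-type (blue) and 4 *Mir140*-null (orange) libraries. The libraries labelled null 1 and 2 lie at 883 and 1059 TPM of marker, and null 3 and 4 lie within the wild-type range of marker with *Xpo5* at 7.79 and 8.12 TPM.

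*Dicer1* (ENSMUSG00000041415, chr12:104687742-104751952, minus strand), the cytoplasmic nuclease that releases the miRNA duplex, differed little. It was at 7.70, 9.39, 8.37 and 9.47 TPM in WT and at 10.2, 9.93, 9.49 and 9.62 TPM in null. Every null library was above every WT library, but null 3 exceeded WT 4 by a small margin. The log2 fold change was 0.15 ± 0.11 (adjusted p = 0.359, limma), and its 95% interval from -0.10 to 0.41 corresponds to -6.66% to 32.6% on the TPM + 1 scale. Its double-stranded RNA-binding partners *Tarbp2* and *Prkra* and the RNA-editing enzyme *Adar* were not called either, which makes 0 of the 4 genes of the dicing step.

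Among the Argonautes, *Ago3* was the most abundant mRNA in every library and *Ago4* the least, and none of the 4 was called. *Ago2* (ENSMUSG00000036698, chr15:73095844-73184935, minus strand), the Argonaute best known for slicing its target, was at 3.91, 5.86, 5.11 and 5.25 TPM in WT and at 6.86, 6.42, 6.36 and 6.84 TPM in null. All null libraries were higher, and the log2 fold change was 0.35 ± 0.13 (adjusted p = 0.111, limma). *Ago1* (ENSMUSG00000041530, chr4:126435012-126468583, minus strand) was at 2.62, 1.79, 2.49 and 1.73 TPM in WT and at 0.808, 0.782, 1.51 and 1.58 TPM in null. All null libraries were lower, those labelled null 1 and 2 the most, and the log2 fold change was -0.55 ± 0.18 (adjusted p = 0.0685, limma). Without the libraries labelled null 1 and 2 it was -0.30 (adjusted p = 0.33), whereas *Ago2* then differed by 0.34 (adjusted p = 0.27).

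*Ago3* (ENSMUSG00000028842, chr4:126331704-126429556, minus strand) was at 13.6, 22.1, 18.0 and 16.6 TPM in WT and at 10.2, 12.3, 14.3 and 18.9 TPM in null. The genotypes overlapped, with a log2 fold change of -0.33 ± 0.21 (adjusted p = 0.306, limma). *Ago4* (ENSMUSG00000042500, chr4:126489541-126533472, minus strand) was at 1.14, 0.554, 0.928 and 0.891 TPM in WT and at 0.599, 0.62, 0.623 and 0.515 TPM in null. These levels are close to the 0.5 TPM minimum, and the log2 fold change of -0.23 ± 0.12 did not pass (adjusted p = 0.205, limma). Of the Argonautes on a predicted target list, *Ago1* and *Ago4* were thus at lower means and *Ago2* at a higher mean in the mice that lack miR-140, with no call for any of them.

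*Ago2* took a larger share of the Argonaute mRNA in every null library than in any WT library. It made up 18.4% to 21.4% of the summed Argonaute TPM in WT and 24.6% to 37.2% in null, and *Ago3* 63.9% to 72.9% and 55.1% to 67.9%. The *Ago1* over *Ago2* ratio differed by -0.90 (null minus WT) on the log2 scale, the *Ago2* over *Ago3* ratio was higher by 0.68 and the *Ago2* over *Ago4* ratio by 0.58, and none of these 3 ratios overlapped between genotypes (two-sided exact permutation p = 0.0286 each, the smallest value that 4 against 4 libraries allow). Over the 8 ratios tested, which include *Drosha* over *Dgcr8* and *Tnrc6a* over *Tnrc6b*, the Benjamini-Hochberg adjusted value of these exact tests was 0.0571, so none passed. *Ago1* was lower and *Ago2* higher in every null library, so their ratio could not overlap. All 3 ratios contain *Ago2* and are not independent of its difference given above. How often ratios of other gene pairs are separate was not examined. Without the libraries labelled null 1 and 2 the 3 differences were -0.65, 0.41 and 0.59, and with a pseudocount of 0.1 *Ago2* over *Ago4* differed by 0.87. The other 3 Argonaute ratios, *Ago1* over *Ago3*, *Ago1* over *Ago4* and *Ago3* over *Ago4*, overlapped and differed by -0.23, -0.32 and -0.10, and the last of these changed sign with a pseudocount of 0.1 (0.12).

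**Figure D3:**
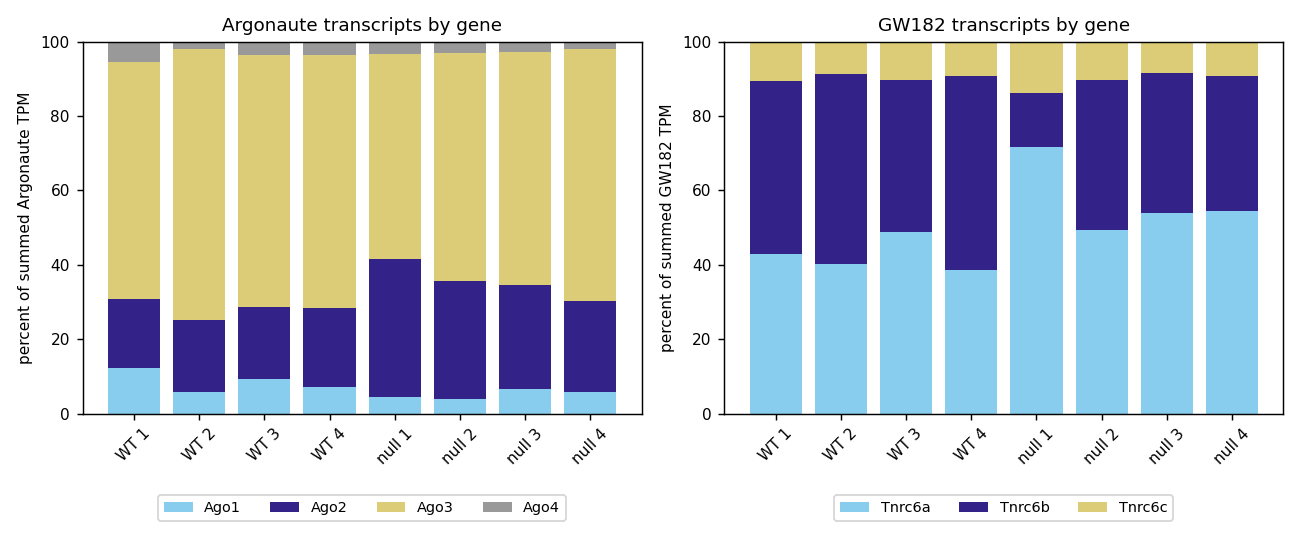
Share of each Argonaute gene in the summed Argonaute TPM (left) and of each GW182 gene in the summed GW182 TPM (right), in percent, for each wild-type (WT) and *Mir140*-null library. *Ago2* takes 18.4% to 21.4% in the wild-type and 24.6% to 37.2% in the null libraries, and *Tnrc6b* takes 14.5% of the GW182 mRNA in null 1.

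The GW182 proteins bridge Argonautes to the deadenylases. *Tnrc6a* (ENSMUSG00000052707, chr7:123123885-123195296, plus strand) was at 11.0, 13.5, 13.4 and 11.2 TPM in WT and at 9.00, 12.5, 13.3 and 13.9 TPM in null. The genotypes overlapped fully, and the log2 fold change of -0.02 ± 0.16 (adjusted p = 0.943, limma) had a 95% interval from -0.38 to 0.34. Its sign changed with the scaling (0.01 with median-ratio scaling). *Tnrc6b* (ENSMUSG00000047888, chr15:80711313-80941085, plus strand) was at 11.9, 17.0, 11.3 and 15.2 TPM in WT and at 1.83, 10.3, 9.36 and 9.26 TPM in null. Every null library was below every WT library, and null 1 stood far below the other 3. The log2 fold change of -0.94 ± 0.43 did not pass (adjusted p = 0.166, limma), and without null 1 it was -0.47 (adjusted p = 0.113). *Tnrc6c*, the remaining GW182 gene, was also lower in each null library, at 2.66 to 2.94 TPM in WT and 1.74 to 2.61 TPM in null (adjusted p = 0.189, limma). The *Tnrc6a* over *Tnrc6b* ratio was higher in null by 0.92 on the log2 scale, with no overlap (exact permutation p = 0.0286, adjusted 0.0571), and without null 1 by 0.57. *Tnrc6b* has 10 annotated transcripts of 183 to 17332 bases, which the gene value sums.

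**Figure D4:**
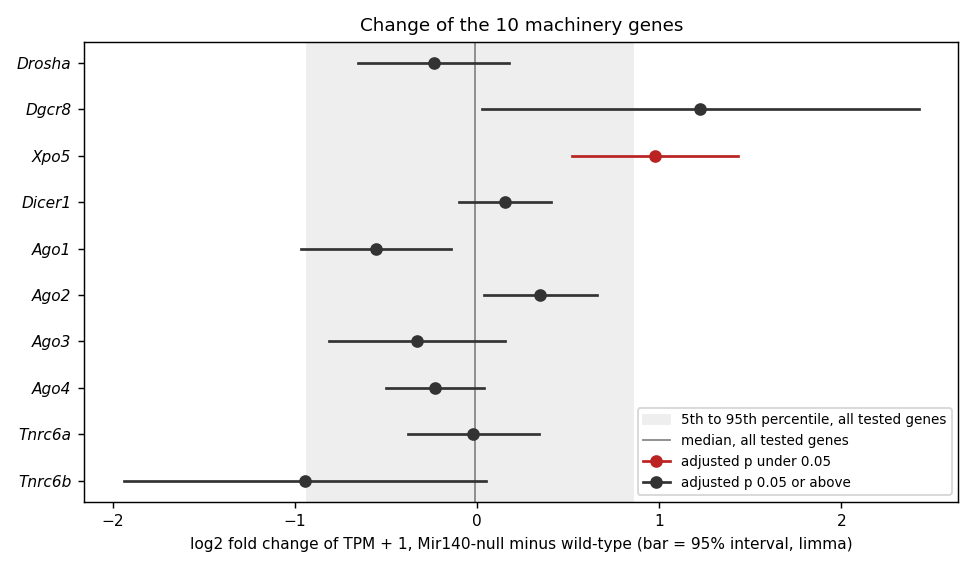
Log2 fold change of TPM + 1 (x axis, *Mir140*-null minus wild-type) for each of the 10 machinery genes with its 95% interval from limma, beside the median and the 5th to 95th percentile of all tested genes (grey). *Xpo5* (red) passes the adjusted threshold, and *Dgcr8* (1.23) and *Tnrc6b* (-0.94) have the widest intervals.

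Ordered by mean level in WT chondrocytes, the members ran from *Ago3* (17.6 ± 3.55 TPM, SD, n = 4) through *Tnrc6b* (13.9), *Tnrc6a* (12.3), *Dicer1* (8.73), *Drosha* (8.29), *Ago2* (5.03), *Xpo5* (4.69), *Dgcr8* (3.75) and *Ago1* (2.16) to *Ago4* (0.877 ± 0.241). The ranges of neighbours overlapped from *Ago3* to *Tnrc6a*, between *Dicer1* and *Drosha*, and between *Ago2* and *Xpo5*, and were separate elsewhere. In null chondrocytes *Dgcr8* (13.1 TPM) and *Xpo5* (10.5 TPM) ranked higher by mean, and the ranges of all neighbours from *Ago3* down to *Ago2* overlapped. The summed TPM of the 10 genes was 69.2 to 85.5 in WT and 66.8 to 103 in null. The genes outside the pathway whose log2 levels followed the mean of the 10 members most closely over the 8 libraries were *E030030I06Rik* (Pearson's r = 0.933), *Ndrg4* (0.919) and *Lnpep* (0.908), chosen from 9603 genes and given as a description, since all values share the libraries and their composition.

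To place the members in their pathway, 80 genes were grouped by role, the 10 members included, of which 77 were tested. In *Mir140*-null chondrocytes 18 of the 77 (23.4%) were called higher and 0 lower by limma, where 10.5% of all tested genes were called higher and 6.40% lower. Of the 18, 11 were among the 35 genes of deadenylation and decapping, which act on the target mRNA. Called or not, 28 of the 77 were separate between genotypes in the higher and 7 in the lower direction, against 15.7% and 10.2% of all tested genes. At an unadjusted p under 0.05, 31 of 77 were higher and 6 lower, where 19.0% of all tested genes were higher and 14.9% lower. The median log2 fold change of the 77 was 0.16, beside -0.01 over all tested genes. Pathway genes are more abundant than most, and among genes at a mean of 5 TPM or more, 19 of 65 (29.2%) were higher where 17.0% of the 9668 such genes were higher and 6.26% lower. There the median was 0.29 for the pathway and 0.11 for all genes. *Ddx17*, a helicase of the Microprocessor, was at 63.4 to 69.4 TPM in WT and 48.0 to 59.6 TPM in null (-0.29, adjusted p = 0.0695, limma).

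Deadenylation had 6 of its 15 genes called higher, with a median of 0.37. All 15 averaged 5 TPM or more, the class in which 17.0% of genes were called higher. *Cnot7*, a catalytic deadenylase of the CCR4-NOT complex, was at 45.1, 53.7, 54.3 and 49.1 TPM in WT and at 109, 101, 81.1 and 84.2 TPM in null (0.87 ± 0.12, adjusted p = 0.00732, limma). No WT library approached the null libraries. *Cnot1*, the scaffold of that complex, rose by 0.56 ± 0.15, *Cnot11*, another of its subunits, by 0.53 ± 0.13, and *Pabpc1*, the cytoplasmic poly(A)-binding protein, by 0.60 ± 0.16. *Pabpc1* was at 962 and 864 TPM in the libraries labelled null 1 and 2, at 585 and 644 TPM in null 3 and 4, and at 463 to 524 TPM in WT. Without the libraries labelled null 1 and 2 it differed by 0.32 (adjusted p = 0.108).

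Decapping, translational repression and 5′ decay had 5 of 20 genes called higher (25%, against 10.5% of all tested genes and 17.0% of those at 5 TPM or more), with a median of 0.32. Of these 20 genes, 17 averaged 5 TPM or more, so the second share is not for an equal class. *Ddx6*, the helicase that links the CCR4-NOT complex to decapping, was at 14.9, 16.1, 14.1 and 15.4 TPM in WT and at 23.0, 23.2, 25.6 and 23.7 TPM in null (0.63 ± 0.09, adjusted p = 0.00839, limma). Its null libraries lay close together, including those labelled null 1 and 2. *Eif4e2*, a cap-binding protein that represses translation, rose by 0.62 ± 0.12, *Patl1*, a bridge between helicase and decapping complex, by 0.85 ± 0.17, and *Edc4*, a scaffold of decapping, by 0.47 ± 0.11. The decapping enzyme *Dcp2* itself was at 2.52 to 5.37 TPM in WT and 3.13 to 4.69 TPM in null and was not called.

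Among the genes that load, assist or turn over Argonautes, 3 of 14 were called higher (21.4%, against 10.5% of all tested genes) and the median was -0.02. Of these 14, 11 averaged 5 TPM or more, the class in which 17.0% of genes were called higher in a fit of its own. *Ptges3*, the p23 co-chaperone of HSP90, was at 38.1, 49.6, 45.5 and 45.7 TPM in WT and at 111, 85.6, 71.3 and 64.9 TPM in null (0.86 ± 0.17, adjusted p = 0.018, limma). *Fmr1*, an RNA-binding protein, rose by 0.50 ± 0.11, and *Zswim8*, the ubiquitin ligase subunit through which some targets trigger decay of their miRNA, by 0.58 ± 0.13. In the Microprocessor group *Hnrnpa1*, an RNA-binding protein that aids processing of some hairpins, was the only called gene of 10 (0.39 ± 0.09, adjusted p = 0.029, limma). *Zc3h12a*, an endonuclease that degrades some hairpins and inflammatory mRNAs, was the only called gene of the 5 tested for precursor tailing, trimming and decay (0.56 ± 0.13, adjusted p = 0.0272, limma). *Lin28a*, *Lin28b* and *Trim71* stayed under the filter and were not tested.

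**Figure D5:**
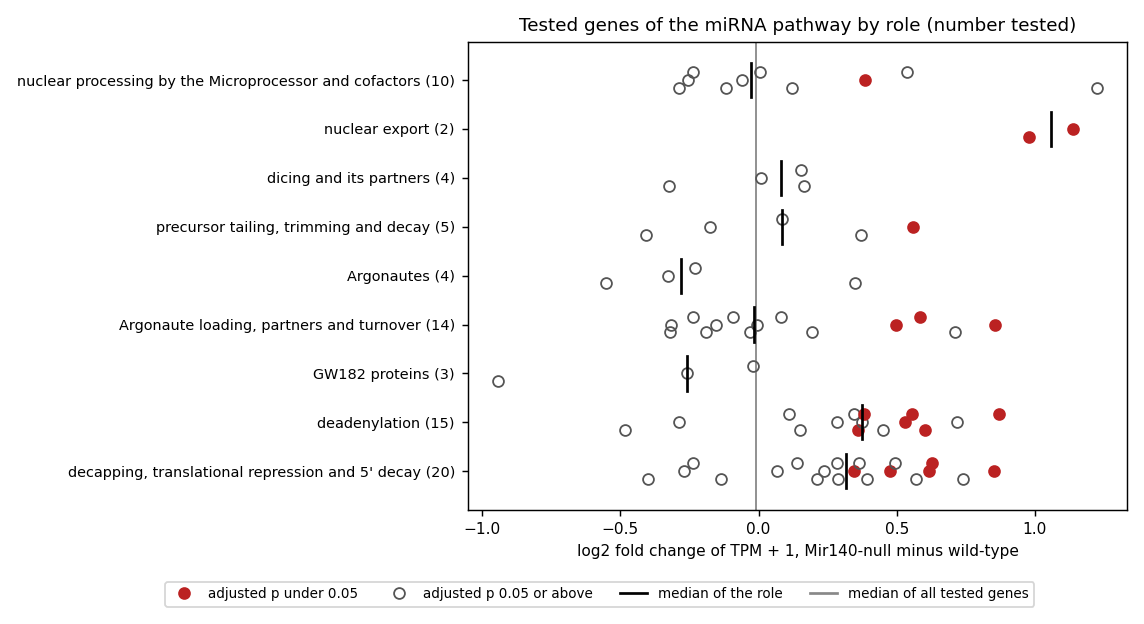
Log2 fold change of TPM + 1 (x axis, *Mir140*-null minus wild-type) of the 77 tested pathway genes by role (y axis, number tested in parentheses). Filled points are the 18 called genes, all to the right of 0, of which 11 belong to deadenylation or decapping, and bars mark the median of each role.

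The counts of called pathway genes depended on the libraries. Without the libraries labelled null 1 and 2, *Cnot7* (0.70), *Ddx6* (0.67) and *Ran* (0.76) were called, 3 of 77 against 2.08% of all tested genes. All 18 genes kept a positive change, but each was already higher in every null library, so leaving out libraries could not reverse the sign. The other 15 lost their call, with adjusted p from 0.0514 to 0.189, among them *Cnot1* (0.43), *Ptges3* (0.60), *Zswim8* (0.39), *Hnrnpa1* (0.30), *Zc3h12a* (0.60), *Fmr1* (0.47), *Cnot11* (0.58), *Eif4e2* (0.47), *Patl1* (0.65) and *Edc4* (0.42). With the fibroblast markers as a covariate 10 of 77 were higher, against 5.78% of all tested genes. Leaving out a WT library gave 10 without WT 1, 14 without WT 2, 6 without WT 3 and 9 without WT 4, where 6.03%, 7.34%, 4.62% and 5.12% of all tested genes were higher. Leaving out a null library gave 11 without null 1, 7 without the library labelled null 2, 15 without null 3 and 12 without null 4, where 6.54%, 4.54%, 9.04% and 8.39% were.

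Of the 80 pathway genes, 13 are on the study's lists of predicted targets of a miR-140 arm or isomiR, 12 of them tested, and 3 were called higher and 0 lower by limma, where 10.5% of all tested genes and 17.0% of those at 5 TPM or more were called higher. Not all 12 belong to the second class, since *Ago1*, *Ago4* and *Dcp2* averaged under 5 TPM. The 3 called genes were *Ran*, listed for miR-140-5p, *Pabpc1*, listed for miR-140-3p.1, and *Hnrnpa1*, listed for both miR-140-3p isomiRs. The other miR-140-5p targets, the HSP90 co-chaperone *Fkbp4* (-0.24, adjusted p = 0.387, limma) and the RNA granule protein *Lsm14b* (0.39, adjusted p = 0.0606), were not called. The helicase *Ddx5*, on both miR-140-3p lists, was at 566 to 653 TPM in WT and 533 to 572 TPM in null (-0.12, adjusted p = 0.343, limma). *P4ha1*, whose prolyl hydroxylase acts on collagen and on AGO2, was also not called (-0.09, adjusted p = 0.568, limma). *Xpo5*, the called member, is on none of these lists.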

How the data were processed

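Primary costal chondrocytes of 4 WT and 4 *Mir140*-null mice were sequenced by the authors as stranded poly(A) libraries (single-end reads of 75 bp). The authors mapped reads to the mm10 transcriptome with Salmon (version not given in the sources used here) and deposited TPM per Ensembl gene, which sum transcripts of different length. FastQC 0.11.7 and DESeq2 are named in the submitters' processing notes. Read counts cannot be taken from TPM, so depth beyond the stated minimum number of reads is unknown and no interval for counting error is given. Groups were taken from the labels.

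Identifiers were counted once (52325) and named from GENCODE M21 (99.8% matched). Genes at 0.5 TPM or more in at least 4 libraries (17177) entered a limma model (version 3.58.1, R 4.3.3) of log2(TPM + 1) on genotype alone, with eBayes and its trend option, two-sided. P-values were adjusted by Benjamini-Hochberg, and genes under 0.05 were called. Fold changes on this scale understate changes of low genes. The study's own test used factors of unwanted variation and a count model, which TPM do not allow. Ratios were tested by exact permutation over 70 assignments. Other steps used Python 3.11.15, NumPy 2.4.6, pandas 2.3.3, SciPy 1.17.1 and matplotlib 3.10.9. The model was tested on simulated data. The members, lists and tests were chosen with earlier results of these data known. Named genes were the 10 members, up to 4 called genes per role with the smallest p, pathway genes on the study's predicted target lists, and the 3 genes most like the members' mean. *Tnrc6c*, *Tarbp2*, *Prkra*, *Adar*, *Ddx17*, *Trmt2a*, *Hspa8* and *Hsp90ab1* were named after their values were seen. Alternatives were a pseudocount of 0.1, quantile or median-ratio scaling, no filter or a minimum mean of 5 TPM, removal of mitochondrial or noncoding genes, a replicate block, a factor from residuals, sample weights, and leaving out libraries. No pairing of libraries by replicate number is stated. Correlations of deviations between same-numbered libraries were -0.01 to 0.07, which does not decide whether a pairing exists.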

Additional observations from a re-analysis of the deposited data

Results flagged for a closer look

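Within each genotype, the highest and lowest library of the 10 members, of 19 other pathway genes named by rule and of the 8 ratios was compared with the spread of the other libraries, in 74 groups of 4, of which 3 stood out (about 1 in 20 does so by chance). *Tnrc6b* in null 1, at 1.83 TPM, was separated from the next library by 0.881 of the range of the null group. *Ran* in WT 1, at 201 TPM, was separated from the other WT libraries by 0.968 of their range, on the side of the null libraries. The log2 ratio of *Drosha* over *Dgcr8* in WT 4, at 0.50 with 1 TPM added to each gene, was separated from the other WT libraries by 0.895 of their range.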

How the results depend on the processing

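Of the 18 called pathway genes, *Xpo5* included, *Cnot7*, *Ddx6* and *Ran* were called under each of the 20 alternatives of the model and each of the others lost its call under at least 1, while all 18 stayed positive. In the fits that only left out libraries this sign was fixed in advance, since all 18 were higher in every null library. Members called higher numbered 1 in the reported fit, 0 with the replicate number as a block and 0 without the libraries labelled null 1 and 2 (chosen after seeing the data), and 0 to 2 when each library was left out. Members called lower numbered 0, and 1 with a factor from residuals (*Ago1*, -0.55, adjusted p = 0.0255). *Xpo5* was 0.98 (adjusted p = 0.0515) with the replicate block, 0.66 without the libraries labelled null 1 and 2, and 0.81 to 1.09 with each library left out, where WT 3 and the library labelled null 2 ended the call. *Dgcr8* ranged from 0.78 to 1.66 and was called without null 3. The unadjusted exact permutation test gave p = 0.0286 for *Xpo5* (0.98), *Dicer1* (0.15), *Ago1* (-0.55), *Ago2* (0.35) and *Tnrc6b* (-0.94). This is the smallest value that 4 against 4 libraries allow, and any gene with separate genotypes gets it. It therefore adds nothing to the separation of these genes, a trait of 15.7% of all tested genes in the higher and 10.2% in the lower direction. *Tnrc6a* changed sign with median-ratio scaling (0.011), mitochondrial genes removed (0.034), sample weights (0.04), the fibroblast covariate (0.11, chosen after seeing the data) and without the libraries labelled null 1 and 2 (0.14), and ranged from -0.084 to 0.11 with each library left out. The log2 ratio of *Ago3* over *Ago4* was 0.12 with a pseudocount of 0.1, 0.18 without the libraries labelled null 1 and 2, and -0.27 to 0.10 with each library left out. *Dcp2* was -0.0027 without those 2 libraries and -0.011 with the covariate.

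Pathway genes called higher numbered 18 in the reported fit, 10 with no filter, 9 with quantile normalization and 4 with the replicate block. Of all tested genes, 10.5%, 2.67%, 8.77% and 3.91% were higher in these fits. Larger counts were 21 with mitochondrial genes removed, 22 with protein-coding genes only and 23 with a factor from residuals, against 12.7%, 15.7% and 14.3% of all tested genes. The count was 3 without the libraries labelled null 1 and 2 and 10 with the covariate, against 2.08% and 5.78% of all tested genes. With each library left out it was 6 to 15, against 4.54% to 9.04%. Pathway genes called lower numbered 0 in the reported fit, 1 with quantile normalization, 3 with a factor from residuals and 1 with sample weights. Of the 17177 tested genes, 1100, 1120, 2016 and 1090 were lower in these fits. Over all genes, 357 to 2460 were higher and 210 to 2016 lower. The cause of these changes was not tested. Whether the replicate numbers pair the libraries is not stated. The depth of each library is unknown, and *Ago4*, near 0.5 TPM, is the member whose values are most exposed to it.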

Other observations

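The null libraries differed among themselves in which machinery gene was high. *Dgcr8* was at 27.2 TPM in null 4 and 3.44 TPM in null 3, although these libraries were alike in *Xpo5* (8.12 and 7.79 TPM) and *Ago1* (1.58 and 1.51 TPM). *Trmt2a*, which overlaps *Dgcr8* on the other strand, averaged 26.5 TPM in both genotypes. *Gm49776*, a protein-coding gene that overlaps *Dgcr8* on the same strand, has no value in these libraries. Whether an overlapping gene bears on the spread of *Dgcr8* was not tested.

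The heat shock chaperones of Argonaute loading, named here after their values were seen, did not follow the co-chaperone *Ptges3*. *Hspa8* was at 3108 to 5747 TPM in WT and 3077 to 5137 TPM in null (log2 fold change 0.08, adjusted p = 0.831, limma), and *Hsp90ab1* at 846 to 1397 TPM and 882 to 1118 TPM (-0.01, adjusted p = 0.986, limma).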
